A study of Mus musculus with 24 samples.

Results

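The genes described here encode 9 chemotactic receptors of the neutrophil: the chemokine receptors Cxcr2, Cxcr4, Ccr1 and Ccr2, the atypical chemokine receptor Ccrl2, the formyl peptide receptors Fpr1 and Fpr2, the leukotriene B4 receptor Ltb4r1 and the platelet-activating factor receptor Ptafr. They were chosen by gene symbol, with earlier results of these data known. They are 9 of the 48709 genes in the files, of which 21058 were above 0 in any library. Mouse marrow neutrophils of the strain C57Bl/6J were taken from the dense layer of a Percoll gradient, so they were enriched and not sorted. They spent 4 hours in culture in 1 of 6 ways: untreated, with LPS and IFNγ together (10 ng/mL and 2 ng/mL, written LPS/IFNγ), with IL4 at 20 ng/mL, with IGF1 at 10 ng/mL, with insulin at 10 ng/mL, or with insulin at 100 ng/mL. The sources used here give no genotype beyond the strain and no age or sex. Every group had 4 libraries, 24 in all. The name of each library's reads carries a bare number, 6, 9, 10 or 11, and every number occurs in each group. It is called a preparation number here, a word that is not taken from the labels. No source used here ties a number to a single mouse, and each number also covers a run of consecutive library names, so cells and library handling cannot be told apart. P-values therefore measure the spread between these libraries only.

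Chemoattractant receptors span the cell membrane and signal through G proteins of the inhibitory type, whose βγ subunits start the phosphoinositide 3-kinase, phospholipase C and Rac pathways that move a neutrophil up a gradient. In the marrow, Cxcr4 holds neutrophils near cells that make its ligand Cxcl12, while Cxcr2, which binds Cxcl1, Cxcl2 and related chemokines, draws them into the blood and to inflamed tissue. Formyl peptide, leukotriene B4 and platelet-activating factor receptors also guide them, and arrestins, receptor kinases and RGS proteins switch the signal off.

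The promoters of 3 genes are shown because these carry the main contrasts below: Cxcr2, which rose with IL4 and IGF1, Ccrl2, which had the largest change with LPS/IFNγ, and Fpr2, whose level with LPS/IFNγ went the other way from that of its relative Fpr1. Each line gives the 250 bases before the RefSeq transcript start (build GRCm38.p6), 5′ to 3′ on the strand of the gene. Capitals mark matches to the motifs described after the sequences.
Cxcr2, chr1:74153744-74153993, plus strand: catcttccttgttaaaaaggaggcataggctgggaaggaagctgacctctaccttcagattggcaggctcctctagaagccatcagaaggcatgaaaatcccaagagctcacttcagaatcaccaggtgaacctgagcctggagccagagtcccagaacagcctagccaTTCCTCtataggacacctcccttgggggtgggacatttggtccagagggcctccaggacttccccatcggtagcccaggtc
Fpr2, chr17:17887574-17887823, plus strand: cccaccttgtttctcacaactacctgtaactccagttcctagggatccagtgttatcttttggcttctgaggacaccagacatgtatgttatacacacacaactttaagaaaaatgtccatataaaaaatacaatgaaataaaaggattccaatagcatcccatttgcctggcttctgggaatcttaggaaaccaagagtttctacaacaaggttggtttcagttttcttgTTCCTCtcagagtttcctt
Ccrl2, chr9:111057519-111057768, minus strand, for the start nearest to the annotated gene start of 3 in the table: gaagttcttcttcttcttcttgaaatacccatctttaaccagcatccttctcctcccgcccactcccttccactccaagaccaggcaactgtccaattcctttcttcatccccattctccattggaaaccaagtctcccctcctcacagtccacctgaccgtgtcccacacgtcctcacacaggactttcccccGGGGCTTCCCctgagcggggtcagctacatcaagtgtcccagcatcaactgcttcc
Both strands were searched for 4 motifs: TTC and GAA with 4 bases between them (the spacing typical of STAT6 sites), GAAA repeated after 2 bases (as in interferon response elements), GAGGAA (the core bound by PU.1, a regulator of myeloid genes) and the NF-κB consensus. A stretch can match more than 1 of them. The Cxcr2 window held GAGGAA at positions -81 to -76 from the start, read on the other strand, a motif present in 23.3% of the 32851 promoter windows in the table. The Fpr2 window held GAGGAA at -19 to -14, again on the other strand, and the Ccrl2 window held an NF-κB match at -56 to -47 (7.25% of windows). Over the 9 receptors, GAGGAA occurred in 5 windows (also Ccr1, Ltb4r1 and Ptafr) and the NF-κB consensus in 2 (also Ccr1). The TTC and GAA pair, held by 5.85% of all windows, and the GAAA repeat, held by 2.98%, were found in 0 of the 9. These matches describe letters in a window and are not evidence of binding.

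Levels are given as RPKM, reads per kilobase of transcript scaled to the mapped reads of a library, and 4 values in a row always stand for preparations 6, 9, 10 and 11. In untreated neutrophils, Cxcr2 was the most abundant of the 9 receptors at 416 ± 12.2 RPKM (mean ± SD, n = 4, as for all means), rank 64 of the 21058 detected genes. Fpr1 (363 ± 49.2, rank 82), Fpr2 (349 ± 30.0, rank 91) and Cxcr4 (230.2 ± 13.3, rank 156) came next. Ltb4r1 (117 ± 13.3, rank 320), Ptafr (79.9 ± 9.79, rank 484) and Ccr1 (50.4 ± 3.76, rank 840) were of middle level. Ccrl2 (5.42 ± 3.72, rank 5237) and Ccr2 (2.11 ± 0.474, rank 7596) were low. The ranges overlapped for Cxcr2 and Fpr1, for Fpr1 and Fpr2 and for Ccrl2 and Ccr2, so the order within these pairs is not settled by these libraries, and all other neighbours in the order were apart. Ccr2 rested on 98 to 417 reads a library and Ccrl2 on 104 to 5420, against 27012 to 61135 for Cxcr2.

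**Figure D1:**
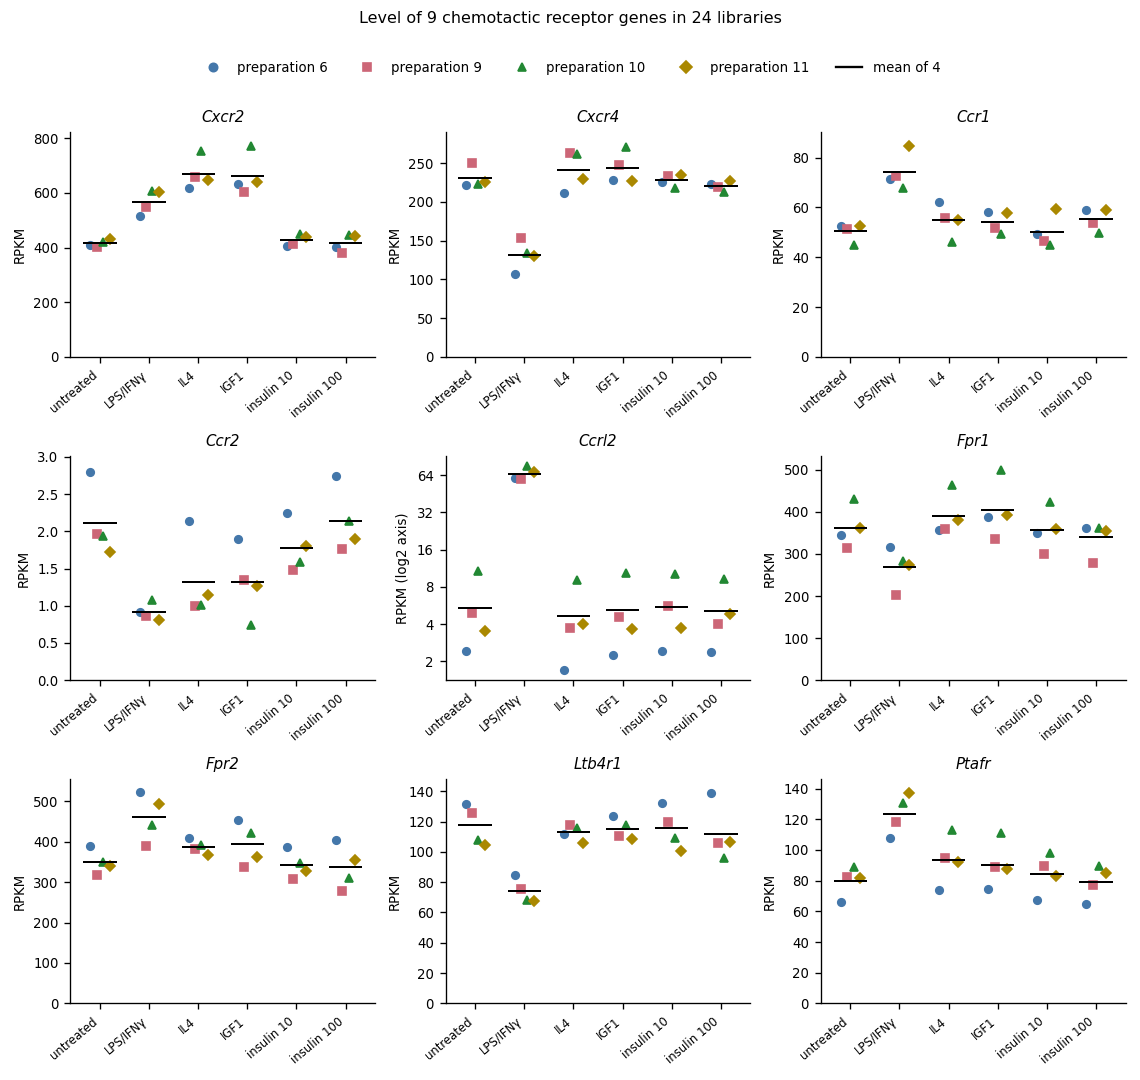
RPKM of the 9 receptor genes in 24 libraries, by treatment (insulin in ng/mL), with 1 symbol per preparation number and a bar at the mean of 4 libraries; the Ccrl2 axis is logarithmic and the others start at 0. Cxcr2 is higher in all 4 IL4, all 4 IGF1 and all 4 LPS/IFNγ libraries than in any untreated or insulin library. Ccrl2 with LPS/IFNγ lies at 59.4 to 76.1 RPKM against 1.70 to 10.8 elsewhere.

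Libraries held 18748634 to 30925209 mapped reads (median 23305916). All 12 neutrophil markers were detected, S100a8 at 22976 to 26521 and Ly6g at 262 to 346 RPKM in untreated libraries, and their summed level was 88117 to 97999 RPKM untreated and 73615 to 87934 with LPS/IFNγ, where 1 marker rose and 3 fell (Mmp9, Retnlg and Cebpe, the last not with median-of-ratios scaling). Markers of other cells were also present, with Cd79a of B cells at 35.7 to 98.5, Epx of eosinophils at 77.8 to 91.8 and Csf1r of monocytes at 24.2 to 39.2 RPKM, and a receptor's level in such a mixture cannot be assigned to a cell type here, nor can fewer cells and less RNA per cell be told apart. No neutrophil marker was called with IL4 or IGF1, though 4 and 5 of the 12 had an unadjusted p under 0.05 by limma. Over all genes 1272 of 13097 did with IL4 and 1426 of 13093 with IGF1. Groups were compared with limma on log2(RPKM + 0.1), which understates the change of low genes. Calls needed both 1.5-fold and p under 0.05 after Benjamini-Hochberg adjustment over all genes tested. All 5 treatments were set against the same 4 untreated libraries. With LPS/IFNγ the median change over all 13062 genes tested was -0.22 (log2), and median-of-ratios scaling, which brings it to 0.00, moved the share of higher genes among the called from 31.4% to 54.8%, so for that stimulus the rescaled value is given too.

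After LPS/IFNγ, 5 of the 9 receptors were called: Ccrl2 and Ptafr rose, and Cxcr4, Ccr2 and Ltb4r1 fell. Of all genes tested 25.9% were called, 8.15% higher and 17.8% lower. With median-of-ratios scaling 6 receptors were called, with Cxcr2, Ccr1 and Fpr2 added as higher and Cxcr4 and Ltb4r1 lost, and all 9 kept their direction. IL4 and IGF1 each raised 1 of the 9, Cxcr2, against 1.66% of 13097 genes called with IL4 (1.62% higher) and 1.63% of 13093 with IGF1 (1.57% higher). Neither insulin dose changed any receptor by limma (at 10 ng/mL 0% of 13055 genes were called, at 100 ng/mL 0% of 13108), and 0 of the 9 had an unadjusted p under 0.05 at either dose, against 174 and 321 of all genes.

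**Figure D2:**
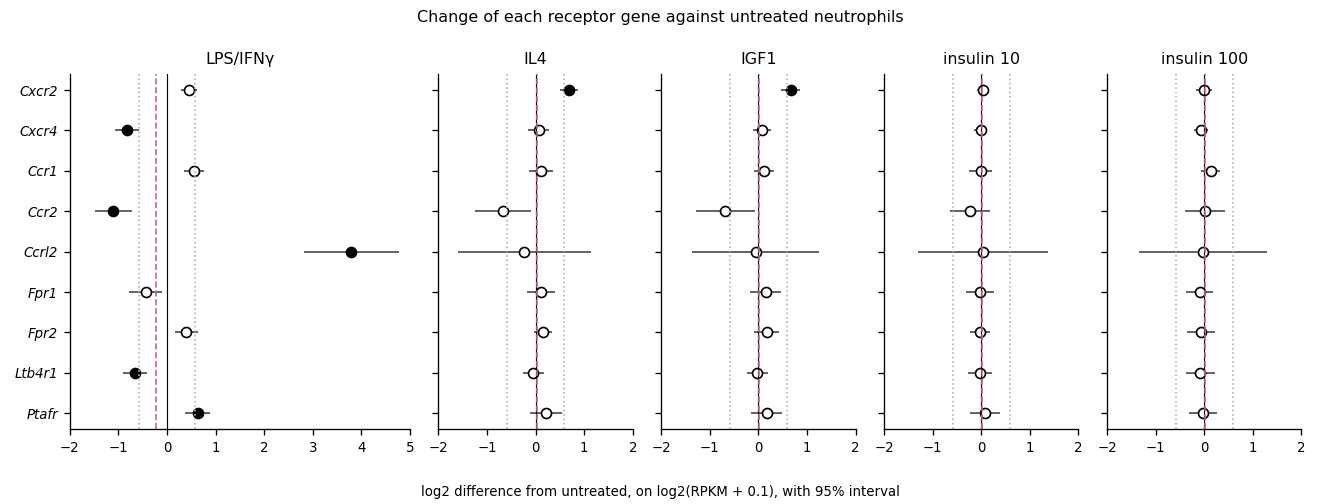
Log2 difference of each receptor from untreated (point) with its 95% interval (line) in 5 treatments; filled points were called, dotted lines mark 1.5-fold, the dashed line is the median of all genes and the LPS/IFNγ panel has a wider axis at the same scale. Ccrl2 with LPS/IFNγ stands far right at 3.79, and the insulin panels hold no filled point.

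Cxcr2 lies on chromosome 1 of GRCm38 from 74153989 to 74161246. It was at 411, 402, 422 and 429.9 RPKM in the untreated libraries, 618, 658, 752 and 646 with IL4 and 630.5, 605, 769.9 and 639 with IGF1. All libraries of both treatments lay above all untreated ones, with preparation 10 the highest in each. Cxcr2 rose by 0.68 log2 (SE 0.07, 1.60-fold, limma adjusted p 0.00146) with IL4 and by 0.66 (SE 0.08, 1.58-fold, adjusted p 0.00318) with IGF1. Within preparations, the treated library was 1.49 to 1.83 times its untreated counterpart over both treatments.

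Set directly against each other, IGF1 and IL4 differed by -0.02 for Cxcr2 (95% interval -0.24 to 0.21, adjusted p 1), which allows a small difference in either direction. None of the 9 receptors was called between IGF1 and IL4, nor was any of the 13080 genes (0%), of which 125 had an unadjusted p under 0.05, none of them a receptor of the 9. Insulin, at the same 10 ng/mL as IGF1, left Cxcr2 at 407, 414, 448 and 438 RPKM, and at 100 ng/mL it was 403, 381, 445 and 443, both overlapping the untreated values. IGF1 exceeded insulin by 0.63 (adjusted p 0.00517) at the matched dose, where 1.43% of 13059 genes were called (1.38% higher), and by 0.66 (adjusted p 0.00793) at the higher insulin dose, where 1.52% of 13124 were called (1.46% higher). Cxcr2 was the 1 receptor called in each of these 2 comparisons. Both calls fell under the 1.5-fold limit without the IGF1 library of preparation 10, at 0.55 and 0.58, still with all IGF1 libraries above all insulin libraries.

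With LPS/IFNγ, Cxcr2 was at 516, 547, 606 and 604 RPKM, again above every untreated library and lower than all 4 IL4 libraries. The difference from untreated was 0.45 (SE 0.06, adjusted p 0.000314), below the 1.5-fold limit and not called. Rescaled, it was 0.70 (adjusted p 6.8e-05) and called. Against IL4, LPS/IFNγ libraries were at -0.23 (adjusted p 0.0606), which rescaling turned to 0.07 (adjusted p 0.579), so no order between these treatments was established.

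Cxcr4 (chromosome 1, 128588199 to 128592293) was called with LPS/IFNγ and with no other treatment. Its levels were 222, 249.9, 223 and 226 RPKM untreated and 107, 154, 134 and 130.0 with LPS/IFNγ, groups that did not overlap. The change was -0.82 log2 (SE 0.10, adjusted p 0.000111), and rescaled -0.57 (adjusted p 0.000504), just under 1.5-fold. IL4 (212 to 263 RPKM), IGF1 (227 to 270.2) and the insulin doses (218 to 234 and 213 to 227) overlapped the untreated range. Against IL4, the LPS/IFNγ libraries were at -0.88 (adjusted p 0.000304), a call lost after rescaling (-0.58, adjusted p 0.00125).

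The ratio of Cxcr2 to Cxcr4 within a library does not depend on how libraries are scaled, and was added after the values had been seen. It was 1.85, 1.61, 1.89 and 1.91 untreated, 2.92, 2.51, 2.87 and 2.81 with IL4, 2.76, 2.45, 2.85 and 2.82 with IGF1 and 4.80, 3.56, 4.51 and 4.65 with LPS/IFNγ. These 3 treatments lay above all untreated libraries, LPS/IFNγ highest, and preparation 9 gave the lowest ratio in all 6 groups. The mean log2 ratio was 1.27 higher than untreated with LPS/IFNγ (SE 0.11), 0.62 with IL4 (SE 0.08) and 0.58 with IGF1 (SE 0.08), each with an exact two-sided permutation p of 0.0286, the smallest that 4 against 4 libraries can give, and 0.0714 after adjustment over the 10 ratio tests. With insulin at 10 ng/mL the ratio was 1.80, 1.78, 2.05 and 1.87 (exact permutation p 0.571). At 100 ng/mL it was 1.80, 1.74, 2.09 and 1.95 (exact permutation p 0.486). The ratio tests did not pair libraries by preparation.

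**Figure D3:**
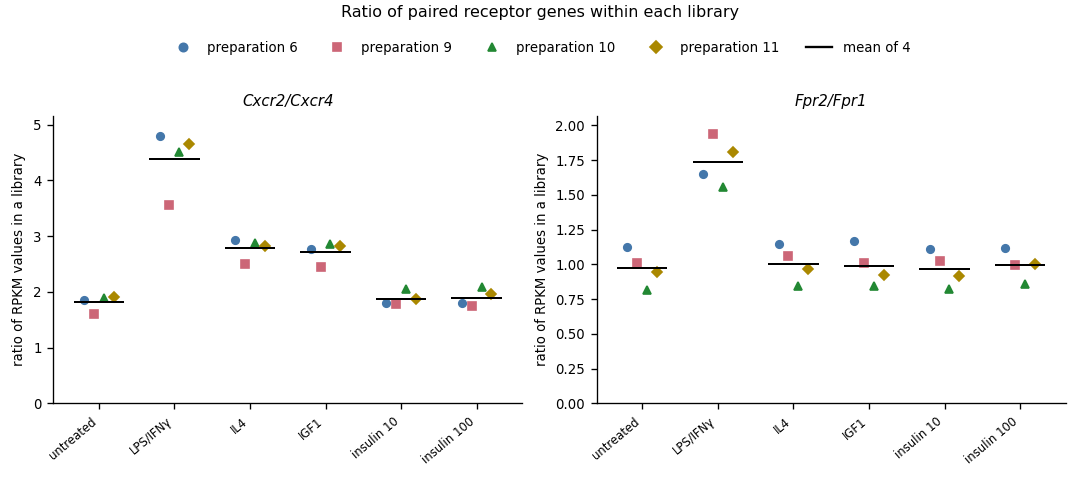
Ratio of Cxcr2 to Cxcr4 (left) and of Fpr2 to Fpr1 (right) in each of 24 libraries by treatment (insulin in ng/mL), with bars at the mean of 4. Cxcr2 to Cxcr4 lies at 3.56 to 4.80 with LPS/IFNγ, 2.45 to 2.92 with IL4 or IGF1 and 1.61 to 2.09 in the rest, and Fpr2 to Fpr1 stands apart with LPS/IFNγ only.

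Ccr1 (chromosome 9, 123962124 to 123968692) binds Ccl3, Ccl5 and related chemokines. Untreated libraries held 52.5, 51.4, 44.8 and 52.7 RPKM and LPS/IFNγ libraries 71.3, 72.6, 67.8 and 84.6, with no overlap. The difference of 0.55 (SE 0.08, adjusted p 0.000382) missed the 1.5-fold limit, but passed it rescaled (0.80, adjusted p 5.05e-05) and without the LPS/IFNγ library of preparation 10 (0.59). The other 4 treatments ranged over 46.0 to 62.2 (IL4), 49.2 to 58.1 (IGF1), 44.9 to 59.5 and 49.7 to 59.1 RPKM (insulin), all overlapping untreated.

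Ccr2 (chromosome 9, 124101950 to 124113557), the receptor for Ccl2 and best known from monocytes, was the least abundant receptor. It stood at 2.80, 1.97, 1.94 and 1.72 RPKM untreated and 0.917, 0.857, 1.08 and 0.809 with LPS/IFNγ. Every LPS/IFNγ library was below every untreated library, and Ccr2 fell by 1.10 log2 (SE 0.16, adjusted p 0.000317; rescaled -0.87). With IL4 it was 2.14, 1.00, 1.01 and 1.15 and with IGF1 1.90, 1.35, 0.745 and 1.26, lower than the untreated library of the same preparation in 4 of 4 cases for both. Preparation 6 was the highest in all 3 groups, both treated ranges overlapped the untreated one, and neither -0.68 with IL4 (adjusted p 0.382) nor -0.68 with IGF1 (adjusted p 0.359) was called. With preparation as a block, the IL4 difference was called (limma adjusted p 0.0338), as it was without the IL4 library of preparation 6 (-0.92, adjusted p 0.0436), while the IGF1 difference was not called with the block (adjusted p 0.077). Insulin libraries lay at 1.48 to 2.25 and 1.76 to 2.75 RPKM.

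Monocyte and macrophage markers were low but not at 0 in all libraries of any group. Of the 14 tested with LPS/IFNγ, Ccr2 included, 5 fell (Csf1r, F13a1, Cd68, Ccr2 and Cx3cr1) and 1 rose (Irf8), while 17.8% of all genes were called lower and 8.15% higher. After rescaling 5 fell and 3 rose. Without Ccr2, the 14 markers in the files summed to 96.4 to 131 RPKM untreated, 76.4 to 96.7 with LPS/IFNγ, 128 to 186 with IL4 and 124 to 189.7 with IGF1. The list did not move one way with IL4 or IGF1, where its medians were 0.05 (14 tested) and 0.18 (15 tested). Adgre1, the F4/80 antigen of macrophages, was at 29.0 ± 10.7 RPKM untreated, 63.7 ± 17.9 with IL4 and 64.8 ± 19.6 with IGF1, and so made up most of the higher sum. F13a1, a marker of monocytes, was at 2.76 to 5.96 RPKM untreated, 1.62 to 3.36 with IL4 and 1.67 to 3.40 with IGF1. By limma 0 markers of this list were called with IL4 or IGF1. An unadjusted p under 0.05 was found for 7 of 14 tested with IL4 and 6 of 15 with IGF1. Over all genes it was found for 1272 of 13097 and 1426 of 13093. The part of monocytes and macrophages in the Ccr2 values was not tested.

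Ccrl2 (chromosome 9, 111054486 to 111057519) binds the chemoattractant chemerin without signalling through G proteins. It was at 2.44, 4.92, 10.8 and 3.53 RPKM untreated and 60.4, 59.4, 76.1 and 67.5 with LPS/IFNγ. The groups lay far apart, and Ccrl2 rose by 3.79 log2 (SE 0.41, 13.9-fold, adjusted p 0.000171; rescaled 4.04). Within preparations the ratio to untreated was 24.7, 12.1, 7.06 and 19.1, lowest in preparation 10, where the untreated level was highest. Against IL4 the difference was 4.03 (adjusted p 0.000197). The remaining treatments gave 1.70, 3.72, 9.17 and 3.99 (IL4), 2.24, 4.56, 10.3 and 3.67 (IGF1), 2.42, 5.56, 10.2 and 3.70 and 2.37, 3.98, 9.32 and 4.79 RPKM (insulin). They repeated the order of the untreated preparations at both ends, with preparation 6 lowest and preparation 10 highest.

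The level of Ccrl2 also went with preparation. In a limma fit of treatment and preparation over all 24 libraries, added after the data were seen, its largest difference between preparations was 1.82 log2 (10 over 6, moderated F test, adjusted p 4.75e-06), where the median gene had 0.30. Of the 9 receptors 8 differed between preparations at an adjusted p under 0.05, as did 40.8% of 14272 genes, and Cxcr4 did not (adjusted p 0.0736). Ptafr differed in the same direction by 0.48 (10 over 6, adjusted p 1.07e-06) and Ccr2 in the other by 0.56 (6 over 10, adjusted p 0.00576). Whether cells or library handling differed between the preparations cannot be told apart.

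**Figure D4:**
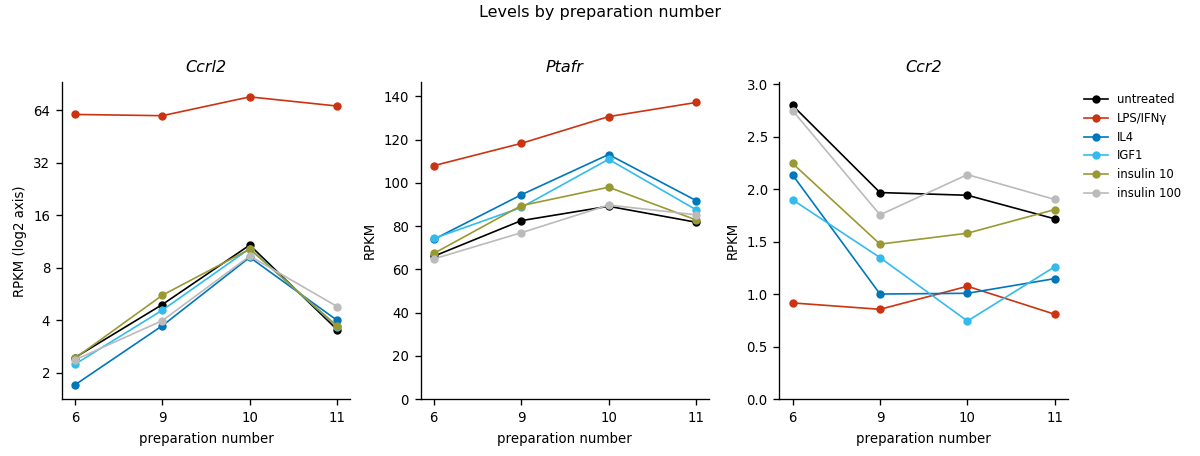
RPKM of Ccrl2 (logarithmic axis), Ptafr and Ccr2 (axes from 0) by preparation number, 1 line per treatment (insulin in ng/mL); the lines join libraries of a treatment and imply no order of the preparations. Without LPS/IFNγ, Ccrl2 runs from 1.70 to 2.44 RPKM in preparation 6 and from 9.17 to 10.8 in preparation 10, and the LPS/IFNγ line stays between 59.4 and 76.1.

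Fpr1 and Fpr2, neighbours on chromosome 17 (17876471 to 17883940 and 17887824 to 17893952), bind formylated peptides of bacteria and mitochondria, Fpr1 with high affinity and Fpr2 together with many other peptide and lipid ligands. Fpr1 was at 345, 313, 430.0 and 362 RPKM untreated and 316, 201, 284 and 274 with LPS/IFNγ, overlapping in 1 library. Fpr2 was at 389, 317, 350.5 and 341 RPKM untreated and 522, 389.5, 442 and 495 with LPS/IFNγ, all higher, though the lowest treated library was level with the highest untreated one. Their differences, -0.44 (adjusted p 0.0296) for Fpr1 and 0.40 (adjusted p 0.00791) for Fpr2, were opposite in sign and both under 1.5-fold. Rescaled, Fpr1 was at -0.19 (adjusted p 0.411) and Fpr2 at 0.65 (adjusted p 0.00237), the latter called.

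The ratio of Fpr2 to Fpr1 within a library, which scaling leaves as it is, was also added after the values had been seen. It was 1.13, 1.01, 0.815 and 0.943 untreated and 1.65, 1.94, 1.56 and 1.81 with LPS/IFNγ. No values overlapped, and Fpr2 went from near equality to the larger of the pair in all 4 treated libraries (log2 difference 0.84, SE 0.12). The exact two-sided permutation p was 0.0286, the smallest that 4 against 4 libraries can give, which groups without overlap always reach. Adjusted over the 10 ratio tests it was 0.0714. With IL4 the ratio was 1.14, 1.06, 0.848 and 0.968 (exact two-sided permutation p 0.714). With IGF1 the ratio was 1.17, 1.01, 0.848 and 0.927 (exact two-sided permutation p 0.857), both close to the untreated values. Fpr2 overlaps Fpr3 on the same strand in the annotation, so reads of the shared stretch may have been counted for either.

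Ltb4r1 (chromosome 14, 55765962 to 55768494), the high-affinity receptor for leukotriene B4, and Ptafr (chromosome 4, 132564067 to 132582683), the receptor for platelet-activating factor, went in opposite directions with LPS/IFNγ. Ltb4r1 went from 132, 126, 108 and 105 RPKM untreated to 84.9, 75.2, 68.3 and 67.7, and Ptafr from 66.1, 82.5, 89.2 and 81.8 to 108, 118, 131 and 137, each with no overlap. Ltb4r1 fell by 0.66 log2 (SE 0.10, adjusted p 0.00038), with a narrow ratio to untreated of 0.599 to 0.646 within preparations, though its rescaled change of -0.42 (adjusted p 0.0105) was not called. Ptafr rose by 0.63 (SE 0.10, adjusted p 0.000794; rescaled 0.88). That call was lost without the untreated library of preparation 6 (0.54) or the LPS/IFNγ library of preparation 11 (0.58), both just under 1.5-fold.

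Both receptors overlapped the untreated range under the other treatments: Ltb4r1 lay at 106 to 118 RPKM with IL4, 108 to 124 with IGF1, 101 to 132 and 96.2 to 139 with insulin. Ptafr lay at 73.9 to 113 with IL4, 74.3 to 111 with IGF1, 67.4 to 98.0 and 64.9 to 89.7 with insulin. The IL4 and IGF1 libraries of Ptafr exceeded the untreated library of the same preparation in 4 of 4 cases, by 1.12 to 1.27 and 1.07 to 1.24 times. Neither difference was called by limma (0.22, adjusted p 0.688, and 0.17, adjusted p 0.719). Libraries with insulin at 10 ng/mL also exceeded it in 4 of 4 cases, by 1.01 to 1.10 times. Cxcr2, Ccr1, Fpr1 and Fpr2 were likewise above untreated in 4 of 4 cases with IL4 and with IGF1. How many of all genes did so was not counted.

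LPS/IFNγ and IL4, used in the study as N1 (pro-inflammatory) and N2 (reparative) stimuli, differed in 3 of the 9 receptors when set against each other: Ccrl2 was higher with LPS/IFNγ, and Cxcr4 and Ltb4r1 were lower. Of 13082 genes 27.2% were called, 7.66% higher and 19.5% lower. Ltb4r1 was at -0.61 (adjusted p 0.000443), a call lost after rescaling (-0.31), without the LPS/IFNγ library of preparation 10 (-0.58) or 11 (-0.57), and with preparation 10 left out of both groups (-0.56). Fpr1 was at -0.55 (adjusted p 0.0121), lower in all LPS/IFNγ libraries than in any IL4 library but under 1.5-fold, and was called without the IL4 library of preparation 6 or 9 (-0.59 each) or the LPS/IFNγ library of preparation 6 (-0.63). With rescaling the 3 called receptors were Ccr1 (0.74), Ptafr (0.71) and Ccrl2 (4.32), all higher.

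Under IL4, IGF1 and insulin, no change of a formyl peptide receptor was called. With IL4, Fpr1 was at 0.11 (95% interval -0.16 to 0.37) and Fpr2 at 0.15 (-0.02 to 0.32), and with IGF1 they were at 0.15 (-0.16 to 0.45) and 0.17 (-0.07 to 0.41). Insulin at 100 ng/mL left Cxcr2 at 0.00 (-0.14 to 0.15), Cxcr4 at -0.06 (-0.18 to 0.06) and Ccr1 at 0.13 (-0.04 to 0.31). For Ccrl2 the interval at that dose was -1.32 to 1.26, from a fit whose spread includes the difference between preparations, while the ratio to untreated within preparations was 0.809 to 1.36.

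Among 19 other chemokine receptors, IL4 and IGF1 raised Cxcr1, the close relative of Cxcr2 that lies beside it in the genome. Cxcr1 was at 1.35, 0.479, 0.884 and 0.739 RPKM untreated, 8.50, 3.86, 8.03 and 4.15 with IL4 and 9.02, 3.47, 7.46 and 4.19 with IGF1, so that each treated library was 5.61 to 9.08 (IL4) and 5.66 to 8.44 (IGF1) times its untreated counterpart. It rose by 2.68 log2 with IL4 (adjusted p 0.00621) and by 2.64 with IGF1 (adjusted p 0.0089), to a level still far below that of Cxcr2. Insulin libraries were at 0.537 to 1.39 and 0.675 to 1.10 RPKM, and Cxcr1 was higher with IGF1 than with either dose (2.58, adjusted p 0.0131, and 2.55, adjusted p 0.00435). The sources used here do not say how reads that fit both genes were assigned.

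With IL4, 2 of the 13 tested receptors of that list were called, Cxcr1 and Cxcr6 (1.14, adjusted p 0.0335; rescaled 1.10, no longer called), and with IGF1 3 of 11, Cxcr1 and Cxcr6 (1.10, adjusted p 0.00931) among them. With rescaling 3 were also called for IGF1. The list medians were 0.22 over the 13 tested with IL4 and -0.20 over the 11 tested with IGF1, beside 0.02 over all genes in both. These medians cover different sets of genes. Set directly against IL4, IGF1 gave a list median of -0.04 over 13 tested, and 0 of them had an unadjusted p under 0.05 by limma. Of all genes 1.62% were called higher with IL4 and 1.57% with IGF1. Cxcr6, known from T cells, went from 0.612 to 0.916 RPKM to 1.13 to 2.30 and 1.44 to 2.01. Of 10 T and NK cell markers 3 rose with IL4 (Cd8a, Gzma and Il2rb, the last not after rescaling). With IGF1 2 of them rose (Cd8a and Gzma). By limma, 3 with IL4 and 4 with IGF1 had an unadjusted p under 0.05, against 1272 of 13097 and 1426 of 13093 of all genes. The medians of this marker list were -0.06 and -0.07. Cd3e, part of the T cell receptor complex, was at 1.72 ± 0.412 RPKM untreated, 1.78 ± 0.445 with IL4 and 1.79 ± 0.345 with IGF1, and Cd3d at 4.25 ± 0.380, 3.54 ± 0.709 and 3.43 ± 0.366. The summed level of the list, most of whose difference lay in Cd8a and Gzma, was 14.8 to 17.8 RPKM untreated, 20.5 to 26.4 with IL4 and 21.4 to 24.2 with IGF1. Their part in the Cxcr6 values was not tested.

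LPS/IFNγ lowered 3 of the 11 tested chemokine receptors of that list and raised none (3 lower and 1 higher after rescaling). Of all genes 17.8% were called lower and 8.15% higher. The list median was -0.15, and -0.22 over all genes. The 3 were Cx3cr1, the fractalkine receptor (-2.35, adjusted p 3.17e-05), Ccr3, the eotaxin receptor (-1.32, adjusted p 0.00315), and Cxcr3 (-0.87, adjusted p 0.00362). Cx3cr1 fell to 0.0533 to 0.185 RPKM from 0.720 to 1.28. Eosinophil markers, whose list holds Ccr3, summed to 1971 to 2236 RPKM untreated and 1857 to 2598 with LPS/IFNγ, and Ccr3 was the 1 of 8 called. T and NK cell markers, whose cells are known for Cxcr3, summed to less in each LPS/IFNγ library than in any untreated one, and 2 of 10 fell (Cd3d and Ncr1, neither after rescaling). The part of these cells in the receptor values was not tested.

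Receptors for other attractants and lipid mediators moved in both directions with LPS/IFNγ, 5 of 20 tested up and 6 down (5 and 4 after rescaling). The list median was 0.09, and of all genes 8.15% were called higher and 17.8% lower. Hcar2, the niacin receptor, went from 34.2, 57.6, 75.8 and 53.2 to 213, 241, 293 and 301 RPKM (2.29, adjusted p 6.7e-05) and Ffar2, a receptor for short-chain fatty acids, from 13.2 to 17.5 to 35.3 to 42.8 (1.29, adjusted p 4.18e-06). C5ar2, the non-classical C5a receptor, fell by 1.28 (adjusted p 1.29e-06) and the nucleotide receptor P2ry2 fell by 1.57 (adjusted p 0.000263). With IL4, IGF1 and both insulin doses 0 genes of this list were called by limma, and 3, 5, 0 and 0 had an unadjusted p under 0.05. Over all genes 1272 of 13097 did with IL4 and 1426 of 13093 with IGF1.

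Of 15 genes that end receptor signals, 6 fell with LPS/IFNγ and none rose (list median -0.44), against 17.8% of all genes called lower, but rescaled the count was 3 lower and 2 higher. Arrb1, a β-arrestin that uncouples receptors, was at 20.9, 22.2, 22.8 and 22.9 RPKM untreated and 4.65, 5.40, 4.77 and 5.09 with LPS/IFNγ. It fell by 2.14 log2 (adjusted p 1.39e-08; rescaled -1.89), and Rgs2, which speeds the turnover of GTP on G proteins, fell by 1.76 (adjusted p 9.43e-07; rescaled -1.51). Arrb2, the more abundant β-arrestin, fell by 0.73 and Rgs14 fell by 0.65, both no longer called at -0.48 and -0.40 after rescaling.

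Of 29 genes that carry receptor signals to migration, 5 fell and 1 rose with LPS/IFNγ (2 and 3 after rescaling). Of all genes 17.8% were called lower and 8.15% higher, and the list median of -0.21 was near the -0.22 over all genes. Pik3cg, the phosphoinositide 3-kinase subunit that G protein βγ subunits activate, went from 77.1, 80.9, 82.6 and 79.3 to 23.9, 29.0, 27.3 and 27.7 RPKM. It fell by 1.57 (adjusted p 9.58e-08; rescaled -1.32). Plcb2, a phospholipase C, fell by 1.23 (adjusted p 1.43e-06; rescaled -0.98), and the Rac activator Prex1 fell by 0.83 (adjusted p 1.8e-06; rescaled -0.58, not called). In both of these lists IL4, IGF1 and insulin gave 0 calls by limma, with unadjusted p under 0.05 for 5, 6, 0 and 1 of the 29 signalling genes and for 2, 2, 0 and 1 of the 15 that end signals, in the order IL4, IGF1, insulin at 10 and at 100 ng/mL. Over all genes such a p was found for 1272 of 13097 with IL4 and 1426 of 13093 with IGF1.

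**Figure D5:**
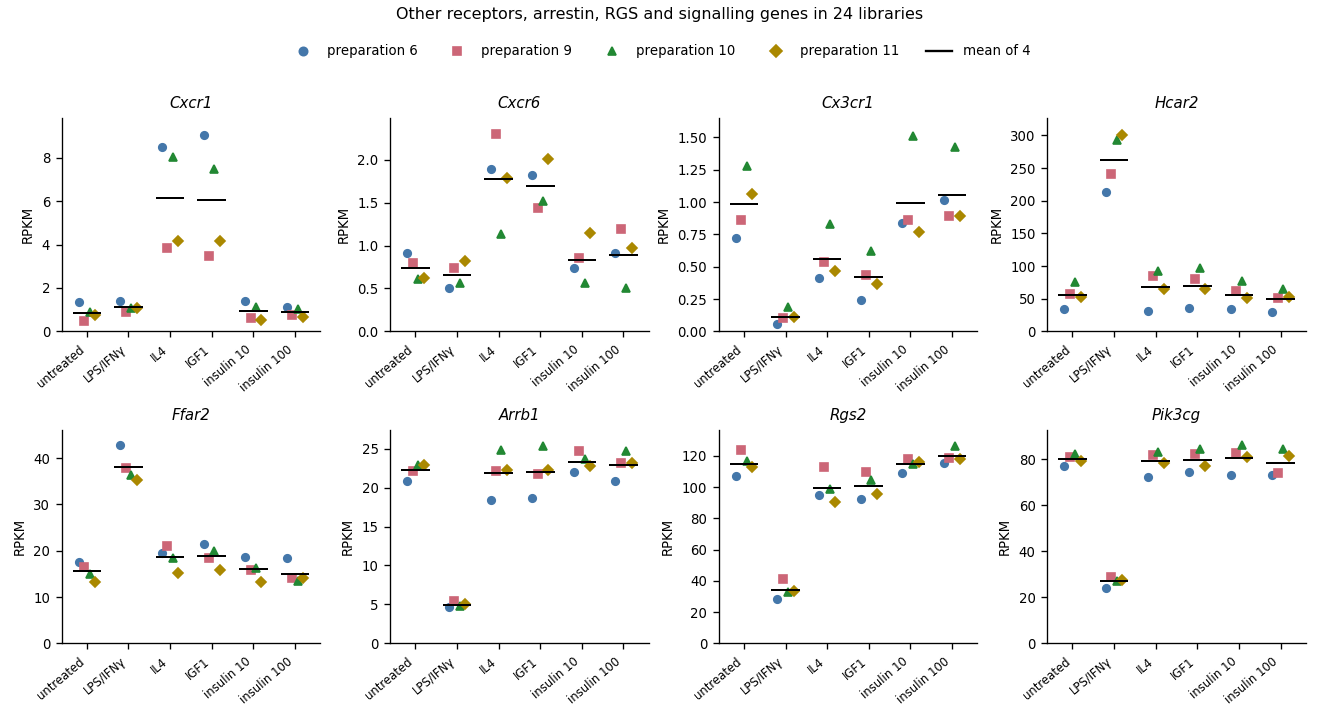
RPKM of 8 genes of the receptor lists in 24 libraries by treatment (insulin in ng/mL), with 1 symbol per preparation number, bars at the mean of 4 and all axes from 0. Cxcr1 and Cxcr6 stand higher with IL4 and IGF1, Hcar2 and Ffar2 stand higher with LPS/IFNγ, and Cx3cr1, Arrb1, Rgs2 and Pik3cg stand lower with it.

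Ligands of the 9 receptors and the enzymes that make or break them were tested as a list of 27. Of these, 20 passed the filter on low values with LPS/IFNγ, 7 higher and 5 lower (9 and 4 after rescaling). The list median was 0.05, and of all genes 8.15% were called higher and 17.8% lower. For the ligand of Ptafr, Pla2g7, which degrades platelet-activating factor, rose by 1.93 (adjusted p 7.95e-06), and Lpcat1, an acyltransferase able to make it, fell by 1.46 (adjusted p 4.26e-06). Alox5, which starts the synthesis of leukotriene B4, fell by 0.81 (adjusted p 5.78e-06; rescaled -0.57, not called). The chemokine Ccl6 fell from 359.8 to 416 to 80.6 to 108 RPKM (-2.11, adjusted p 2.25e-07). With IL4, 1 of 21 was called, Ccl7 (limma adjusted p 0.0464). It was at 0, 0, 0.0997 and 0 RPKM untreated and 0.212, 0.187, 0.421 and 0.198 with IL4, which rests on very few reads. No untreated library reached the 0.1 RPKM of the filter. Ccl7 was therefore tested only through its IL4 libraries, and the call is not evidence of a change. With IGF1 and insulin 0 were called by limma, and 4, 0 and 1 had an unadjusted p under 0.05. Over all genes 1426 of 13093 did with IGF1.

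Set against IL4, LPS/IFNγ lowered 5 of 13 other chemokine receptors and raised none (also after rescaling), among them Cxcr1 (-2.29), Cx3cr1 (-1.62), Cxcr6 (-1.29) and Ccr3 (-1.15). It raised 4 and lowered 7 of 21 other attractant receptors (5 and 5 after rescaling), lowered 5 of 15 genes that end signals (2 after rescaling, with 1 higher; Arrb1 at -2.11, Rgs2 at -1.55), and raised 1 and lowered 5 of 29 signalling genes (3 and 4 after rescaling; Pik3cg at -1.55). Of the ligands and enzymes 8 of 22 were higher, Ccl5 (2.84) and Pla2g7 (1.54) among them, and 8 were lower (8 and 3 after rescaling). Beside these counts, 7.66% of all genes were called higher against IL4 and 19.5% lower.

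Over the 24 libraries, the genes whose log2 levels ran closest to each receptor are given as a description, since libraries that share a treatment or a preparation number are not independent points. Cxcr2 was closest to Rufy4 (Pearson r 0.97), Tarm1 (0.96) and Abtb2 (0.95), among 9295 genes with a mean of at least 1 RPKM. Cxcr4 was closest to Cdc42ep3 (0.98), Mbp (0.97) and D1Ertd622e (0.97), and Ltb4r1 to Tkt (0.98), Rbfa (0.97) and S1pr4 (0.97), a sphingosine 1-phosphate receptor. Ccrl2 ran with Nlrp3 (0.98), the inflammasome sensor, Acod1 (0.98), the enzyme of itaconate synthesis, and Ets2 (0.98). Ptafr ran with Ccl4 (0.97), Plekho2 (0.96) and Gadd45b (0.95). For Ccr2 the closest were Rida (0.94), Arhgef6 (0.93) and Megf9 (0.90), for Ccr1 Gvin1 (0.89), Trim30d (0.88) and Sp110 (0.88), for Fpr1 Pak1 (0.91), Cry1 (0.90) and Orai2 (0.90), and for Fpr2 Qsox1 (0.87), Wfdc17 (0.85) and Acadl (0.85). Among the receptors themselves, Ccrl2 and Ptafr had the highest r (0.88) and Ccr2 and Ptafr the lowest (-0.88).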

How the data were processed

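Per the labels and the study's methods, messenger RNA was captured, made into stranded libraries and read as single reads. Base calls were converted with bcl2fastq 2.17.1.4 (submitters' processing notes), and the authors trimmed the reads, mapped them to GRCm38 (release 86) in CLC Genomics Workbench 12.0.3 and deposited 1 RPKM value per gene and library. Whether the counting used strand is not stated by any source used here. Mapped reads were recovered from the step that 1 read makes in the RPKM values of a library, with exon lengths of GENCODE M21 (lengths of Ccr1 and Ccr2 fitted so that reads come out whole). Python 3.11.15 (numpy 2.4.6, pandas 2.3.3, scipy 1.17.1, matplotlib 3.10.9) was used for tables and figures.

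Genes that reached 0.1 RPKM in 4 or more of the 8 libraries compared were fitted as log2(RPKM + 0.1) with limma 3.58.1 (R 4.3.3, statmod 1.5.0, trend and robust). The test was checked on simulated libraries with known changes. These held no differences between preparations and no shift of the median gene, so the check does not cover either. Tests were two-sided, and adjusted p-values cover all genes tested. All 9 receptors passed the filter in all 9 comparisons. Same-numbered libraries of different groups correlated after removal of group means (60 pairs, r 0.182 to 0.683; the 180 other pairs at most 0.141), and 24 of 24 libraries resembled libraries of the same number most. The numbers were therefore taken to pair the libraries. The main fits and the exact tests of the ratios did not use this pairing, and preparation was a block in an alternative fit of the comparisons. Members and lists were chosen with earlier results of these data known. Genes named beyond the members were up to 4 called genes per list and comparison with the smallest adjusted p, the 3 genes most correlated with each member, and cell type markers beside results they touch. Some genes that this rule names are not reported here. The list members Cxcr1, Cxcr6, Cx3cr1, Hcar2, Ffar2, Arrb1, Rgs2 and Pik3cg were picked for a figure after their values had been seen. Promoter sequences came from RefSeq (GRCm38.p6). Alternatives were other pseudocounts (1 and 0.01), no filter or 1 RPKM, median-of-ratios scaling, no trend and robust settings, all 24 libraries in 1 fit, the block, no fold or a 2-fold limit, unadjusted p, and each library left out. Ratios, the test of preparations and leaving out preparation 10 were added after the data were seen.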

Additional observations from a re-analysis of the deposited data

Results flagged for a closer look

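In groups of 4 libraries, a value was set apart by Dixon's test when its gap to the nearest other value, as a share of the range, passed the critical value for 4 values at 95% confidence, which chance alone does in about 1 of 20 groups. Of the 54 combinations of receptor and group, 4 did. Cxcr4 was at 249.9 RPKM in the untreated library of preparation 9 and at 222 to 226 in the other untreated libraries. Ccr1 was at 44.8 RPKM in the untreated library of preparation 10, against 51.4 to 52.7. Ccr2 was at 2.14 RPKM in the IL4 library of preparation 6, against 1.00 to 1.15, and without this library the difference between IL4 and untreated was called. Fpr1 was at 279 RPKM in the library of preparation 9 with insulin at 100 ng/mL, against 354 to 362.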

How the results depend on the processing

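For receptors called under at least 1 setting of a comparison, 378 of the values under the alternatives set with the design kept their direction and their side of the threshold. Of the others 21 gained a call and 19 lost one, and none of these turned direction. Other thresholds or filters, no trend, the fit of all libraries and the block leave the size of a difference as it is, so direction could not turn there. Median-of-ratios scaling turned 3 differences that were not called in either form, the largest that of Cxcr2 between LPS/IFNγ and IL4 (0.07 in place of -0.23). Without a fold limit, 9 receptors were called for LPS/IFNγ against untreated (5 as reported) and 6 against IL4 (3 as reported). With a 2-fold limit the counts were 2 and 1, and 0 for IL4 and IGF1 against untreated and for IGF1 against either insulin dose (1 as reported in each). With an unadjusted p, 2 receptors (Cxcr2 and Ccr2) were called for IL4 and for IGF1 against untreated and for IGF1 against insulin at 100 ng/mL. With preparation as a replicate block, 2 were called for IL4 against untreated, Ccr2 with Cxcr2, and the block changed no other call of a receptor. Leaving out 1 library gave 1 to 2 calls for IL4 against untreated (2 without the IL4 library of preparation 6) and 0 to 1 for IGF1 against insulin at 10 and at 100 ng/mL (0 without the IGF1 library of preparation 10). With preparation 10 left out, Cxcr2 was at 0.57 for IGF1 against insulin at 10 ng/mL and 0 receptors were called. Median-of-ratios scaling gave 6 calls for LPS/IFNγ against untreated and 3 against IL4, but of partly different receptors, as given with the results. The cause of these shifts was not tested. Depth limits Ccr2, with 98 to 417 reads a library, and Ccrl2 outside LPS/IFNγ, with 104 to 701.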
